A study of Homo sapiens with 4 samples.

Results

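The EGF receptors and EGF-like ligands comprise 10 genes, taken by name as the 4 receptors EGFR, ERBB2, ERBB3 and ERBB4 and the 6 ligands EGF, TGFA, AREG, EREG, HBEGF and BTC. All 10 were represented on the array, by 15 probes of the 26222 whose RefSeq accession gave a symbol, out of 17721 genes. They were followed in OVSAYO cells, a human cell line from a clear cell carcinoma of the ovary, in which the transcription factor Sp1 was silenced and hypoxia was mimicked with CoCl2. NS-si cells carried a negative control siRNA and Sp1-si cells a pool of siRNAs against Sp1, both delivered with a lipid reagent and cultured for 40 h according to the labels, where the study's own text gives a shorter time. NS-si → CoCl2 and Sp1-si → CoCl2 cells were the same 2 kinds of cells exposed to 0.5 mM CoCl2 for a further 4 h. Total RNA of each condition was hybridised to 1 single-colour Agilent array, and all 4 arrays were on 1 slide.

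The family forms a signalling circuit at the cell surface. Its ligands are made as membrane-anchored precursors and released by proteases of the ADAM family, after which they bind receptor tyrosine kinases that pair with each other and signal through RAS, ERK and PI3K. ERBB2 has no known ligand of its own and acts as the partner of the other receptors, and ERBB3 has little kinase activity and couples mainly to PI3K. Ligand and receptor are often made by the same epithelial cancer cell.

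Sp1 binds GC boxes, and the hypoxia-inducible factors bind a short core sequence, so the 250 bases before the annotated start of each gene were taken from the RefSeq table (build GRCh38.p14). The table matched 9 of the 10 members, the exception being ERBB3. EGFR and TGFA each have 2 annotated starts there, of which the one with GC boxes is shown. The 6 windows are those of the genes whose signals differed most between the arrays and of ERBB2, which ran the other way, each read 5′ to 3′ on the strand of the gene, with capitals marking GC boxes (GGGCGG or its reverse complement CCGCCC) and the hypoxia core (ACGTG or GCGTG, or their reverse complements).
EGFR (chr7:55018767-55019016, + strand): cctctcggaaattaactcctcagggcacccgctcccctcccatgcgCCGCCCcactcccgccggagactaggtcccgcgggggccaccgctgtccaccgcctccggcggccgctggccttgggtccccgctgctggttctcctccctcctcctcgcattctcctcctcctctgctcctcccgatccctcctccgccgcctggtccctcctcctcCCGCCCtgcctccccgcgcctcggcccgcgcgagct
ERBB2 (chr17:39687844-39688093, + strand): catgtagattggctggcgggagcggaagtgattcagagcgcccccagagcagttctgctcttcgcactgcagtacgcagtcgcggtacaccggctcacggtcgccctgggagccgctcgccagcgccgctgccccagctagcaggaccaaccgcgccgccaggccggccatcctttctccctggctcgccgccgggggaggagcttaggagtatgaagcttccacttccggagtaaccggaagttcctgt
EGF (chr4:109912633-109912882, + strand): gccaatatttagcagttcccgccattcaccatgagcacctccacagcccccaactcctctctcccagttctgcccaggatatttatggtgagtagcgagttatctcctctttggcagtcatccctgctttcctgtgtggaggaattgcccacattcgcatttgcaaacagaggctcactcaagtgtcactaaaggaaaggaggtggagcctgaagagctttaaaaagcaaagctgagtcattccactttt
TGFA (chr2:70553827-70554076, - strand): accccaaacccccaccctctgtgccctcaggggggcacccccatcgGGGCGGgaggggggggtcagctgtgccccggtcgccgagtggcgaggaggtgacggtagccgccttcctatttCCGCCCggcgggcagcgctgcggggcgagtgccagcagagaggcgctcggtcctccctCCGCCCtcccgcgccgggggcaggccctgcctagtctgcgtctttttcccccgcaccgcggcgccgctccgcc
EREG (chr4:74364895-74365144, + strand): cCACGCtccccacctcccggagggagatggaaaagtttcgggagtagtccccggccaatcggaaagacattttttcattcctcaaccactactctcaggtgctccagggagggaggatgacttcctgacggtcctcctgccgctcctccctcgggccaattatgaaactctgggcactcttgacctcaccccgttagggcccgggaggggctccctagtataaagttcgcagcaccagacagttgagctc
HBEGF (chr5:140346604-140346853, - strand): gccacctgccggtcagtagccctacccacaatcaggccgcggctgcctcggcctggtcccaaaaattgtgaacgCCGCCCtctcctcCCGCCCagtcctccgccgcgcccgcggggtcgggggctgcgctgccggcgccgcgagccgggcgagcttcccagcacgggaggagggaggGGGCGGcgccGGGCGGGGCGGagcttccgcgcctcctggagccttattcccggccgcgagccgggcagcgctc

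A GC box was present in 5 of the 11 windows of these members, each of another gene, against 42.6% of all 35116 windows in the table. EGFR had 2 matches, TGFA 3 and HBEGF 5, of which a pair overlapped by a single base, while ERBB4 and AREG had 1 each. A further window of EGFR and one of TGFA, from other annotated starts, had none. No GC box was found in the windows of ERBB2, EGF, EREG or BTC. The hypoxia core was found in windows of ERBB4, TGFA (at its other start), AREG, EREG and BTC, again 5 of the 11, and is held by 43.2% of all windows. The AP-1 sequence TGANTCA occurred in ERBB2, in EGF and in the other window of EGFR (6.57% of all windows), and the CRE sequence TGACGTCA in AREG (1.65%). These matches describe the letters only, on both strands, and binding was not measured.

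With 1 array per condition, no ratio below has a replicate check and no test was run. The value after ± is the SD between spots, combined over the arrays of a ratio (SD, n = 10 spots where the probe was printed 10 times, and otherwise taken from 10-spot probes of like signal). It does not cover differences between cultures. Signals are background-subtracted intensities as deposited, in arbitrary units, and log2 ratios were computed after the 75th percentile of each array (1142, 1100, 977 and 1285 for NS-si, Sp1-si, NS-si → CoCl2 and Sp1-si → CoCl2) was set to 0. Signals of different probes were not compared with each other. All 15 probes were well above background on all 4 arrays. A gene is given by its brighter probe, and for the members the other probe is named beside it.

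The labels were checked first. SP1 had a signal of 553 with the control siRNA and 39.2 with the Sp1 siRNA, and of 429 and 38.7 under CoCl2, log2 ratios of -3.77 and -3.87. ADM, which encodes adrenomedullin and is a known hypoxia-responsive gene, had CoCl2 ratios of 2.77 and 3.59 for NS-si and Sp1-si cells, and NDRG1 of 2.24 and 2.45, whereas CA9 was above background on none of the arrays. Of the markers of the cell type, NAPSA, PAX8, EPCAM, KRT8, KRT18 and CDH1 were all well above background on every array, and WT1, PTPRC and PECAM1 on none. NAPSA and CDH1 were themselves lower with Sp1 silenced, by log2 ratios of -2.33 and -1.55, and 1 of 2 COL1A2 probes was above background, at 77.5 with the control siRNA and 8.69 with Sp1 silenced. In RNA of a whole culture, fewer cells of a type and less RNA per cell cannot be told apart.

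Among the receptors, EGFR (probe A_23_P215790), the receptor for EGF and TGFA, had signals of 1445 and 424 in untreated NS-si and Sp1-si cells, and of 2086 and 1049 in their CoCl2-treated counterparts. It was highest in NS-si → CoCl2 cells and lowest in Sp1-si cells. Its probe was printed 10 times on each array, and the spots ranged from 1376 to 1538, 379 to 459, 1910 to 2250 and 953 to 1123 in that order, so that no array overlapped another. Silencing of Sp1 went with a log2 ratio of -1.72 ± 0.098 without CoCl2, 3.29-fold lower, and of -1.39 ± 0.10 with CoCl2. CoCl2 went with a ratio of 0.76 ± 0.094 with the control siRNA and 1.08 ± 0.11 with Sp1 silenced. In Sp1-si → CoCl2 cells EGFR was still lower than in untreated NS-si cells, by a log2 ratio of -0.63.

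ERBB2 (probe A_23_P89249), the shared partner of the other receptors, ran the other way with Sp1 silencing. Its 10-spot probe read 8579 in untreated NS-si cells against 13992 in Sp1-si cells, and 8306 (9 spots kept) against 19038 once CoCl2 was added. Both Sp1-si arrays were above both NS-si arrays in every spot, with log2 ratios of 0.76 ± 0.038 without and 0.80 ± 0.048 with CoCl2. The other, dimmer probe gave 0.40 and 0.30. ERBB2 had a log2 ratio of 0.18 with CoCl2 in NS-si cells, which became -0.05 when the arrays were not scaled, and of 0.22 in Sp1-si cells.

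**Figure D1:**
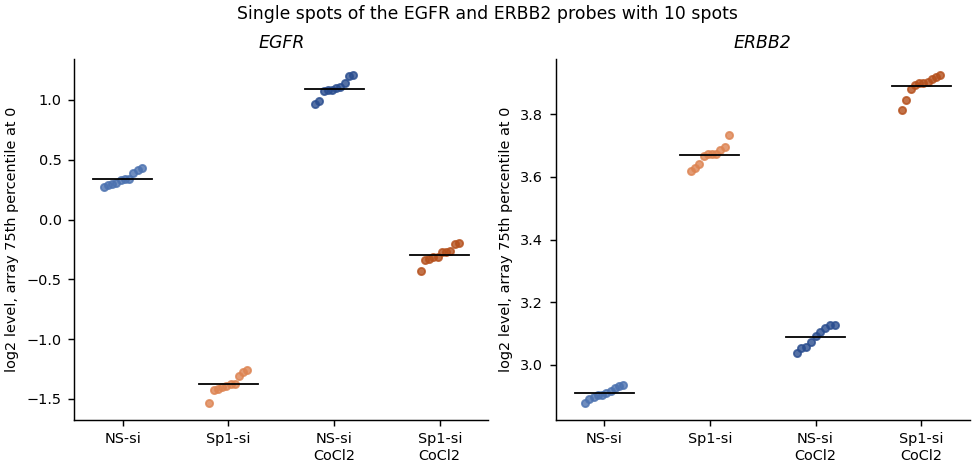
Log2 level (y axis, 75th percentile of each array at 0, separate scales) of each spot of the EGFR and ERBB2 probes printed 10 times, on the 4 arrays (x axis). Bars are means over spots, and the spots of an array are technical repeats of 1 RNA. The spots of EGFR do not overlap between any of the 4 arrays, with Sp1-si lowest, and those of ERBB2 lie higher on both Sp1-si arrays than on both NS-si arrays.

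ERBB3 (probe A_23_P349416), which binds neuregulins and recruits PI3K, read 2501 in untreated NS-si cells against 1226 in Sp1-si cells, and 2041 against 1526 under CoCl2. Both Sp1-si arrays were lower, with log2 ratios of -0.97 without and -0.82 with CoCl2, neither as far as 1. The CoCl2 ratios of ERBB3 were -0.07 and 0.09. ERBB4 (probe A_32_P183765), a further neuregulin receptor that also binds HBEGF and BTC, read 8171 against 6240, and 9043 against 7210 under CoCl2. The ERBB4 ratios of Sp1-si to NS-si were -0.34 without and -0.72 with CoCl2, and the other probe was lower too, at -0.68 without CoCl2 and farther from 0 with it. Its CoCl2 ratio was 0.37 in NS-si cells and -0.02 with Sp1 silenced, or 0.21 there when the arrays were not scaled. By its brighter probe ERBB4 had Sp1-si ratios nearer to 0 than EGFR or ERBB3, and the pair of probes differed in size but not in sign.

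Among the ligands, EGF (probe A_23_P155979), the founding ligand of EGFR, had the largest range over the arrays among the brighter probes, 2.66 on the log2 scale, where the dimmer EREG probe had 3.34. Its signal was 106 with the control siRNA and 20.8 with Sp1 silenced, and 116 and 43.6 after CoCl2. It was low on both Sp1-si arrays, with log2 ratios to NS-si of -2.30 ± 0.16 without and -1.81 with CoCl2. EGF was dim, and with the background model named normexp, which lifts low signals, these became -0.92 and -1.26. EGF had a CoCl2 ratio of 0.36 for NS-si cells, and one of 0.85, but 0.04 with that model, for Sp1-si cells.

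TGFA (probe A_23_P377291), an EGFR ligand that many carcinomas make for themselves, had a signal of 1320 in untreated NS-si cells, 473 with Sp1 silenced, 2464 with CoCl2 and 1302 with both. It was lower on the Sp1-si array of each pair and higher on the CoCl2 array of each pair. The log2 ratios of Sp1-si to NS-si were -1.43 without and -1.32 with CoCl2, and the CoCl2 ratios were 1.13 for NS-si cells and 1.24 for Sp1-si cells. The CoCl2 ratios differed by 0.11, or 0.56 without scaling of the arrays. Sp1-si → CoCl2 cells were close to untreated NS-si cells in TGFA, with a log2 ratio of -0.19.

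HBEGF (probe A_24_P140608), a heparin-binding ligand of EGFR and ERBB4, had the highest CoCl2 ratios of the members by its brighter probe only. Its signal was 108 and 88.4 on the untreated NS-si and Sp1-si arrays and 319 and 346 on those with CoCl2, so that both CoCl2 arrays lay above the others. The log2 ratios were 1.78 and 1.74. The other probe had 1.11 and 0.66, below the 1.13 and 1.24 of TGFA. Without CoCl2 it read about the same, 112 and 88.6, so the choice by mean signal took the probe with the larger CoCl2 ratios. The Sp1-si ratio was -0.24 without CoCl2 and -0.28 with CoCl2, and the latter was 0.12 when the arrays were not scaled. The other probe had -0.28 and -0.73.

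AREG, EREG and BTC lie side by side on chromosome 4 with EPGN, a further ligand of EGFR, and PARM1, in the order EPGN, EREG, AREG, BTC, PARM1 of the RefSeq annotation (GRCh38.p14). EREG (probe A_23_P41344), a ligand of EGFR and ERBB4, had a signal of 6532 in untreated NS-si cells, 2972 with Sp1 silenced, 5791 with CoCl2 and 1535 with both. It was lower on both Sp1-si arrays, and lowest where Sp1 was silenced and CoCl2 present. The log2 ratios of Sp1-si to NS-si were -1.08 without and -2.31 with CoCl2, 4.96-fold lower in the latter. The other probe had -1.13 and -3.08. Its CoCl2 ratio was 0.05 for NS-si cells (-0.17 without scaling of the arrays) and -1.18 for Sp1-si cells. EREG was the single member for which these CoCl2 ratios differed by at least 1, at -1.23, or -1.96 by the other probe.

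AREG (probe A_23_P259071), the amphiregulin gene and neighbour of EREG, read 126567 against 146491 on the untreated NS-si and Sp1-si arrays, and 111451 against 129597 on those with CoCl2, so that no array stood far from the others. The Sp1-si ratio was 0.26 without CoCl2 and -0.18 with CoCl2, or 0.22 with CoCl2 when the arrays were not scaled. RefSeq holds AREGB as an older name of AREG, so the probe was read as AREG alone. BTC (probe A_23_P135722), which encodes betacellulin, a ligand of EGFR and ERBB4, read 498 against 542, and 410 against 306 with CoCl2. It was lowest in Sp1-si → CoCl2 cells, with Sp1-si ratios of 0.18 without and -0.81 with CoCl2. By the other probe these were 0.06 and -0.36. The CoCl2 ratio of BTC was -0.06 for NS-si cells and -1.05 for Sp1-si cells, the latter -0.44 by the other probe. Of the genes beside these 3, EPGN was above background on none of the arrays, and PARM1, which was dim, had ratios between -0.07 and 0.29 by its brightest probe but between -0.67 and -0.26 by another.

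The genes lower on the Sp1-si → CoCl2 array were read against the way the probes of a gene agreed there. For 3750 genes with 2 probes above background on every array, the probes differed by a median of 0.28 in the ratio of Sp1-si → CoCl2 to NS-si → CoCl2, and by at least 1.12 in the top 10%, against 0.16 and 0.68 for Sp1-si to NS-si. In the difference of the CoCl2 ratios, 254 of the genes had at least 1 probe lower by 1 and 15 had both. EREG had both probes past 1, and BTC neither. The array also had the fewest spots well above background, 33081 against 34184 to 34542 on the others. How far this array contributed to the EREG and BTC values was not tested.

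Across the family, CoCl2 was compared first. In NS-si cells 2 of the 10 members, TGFA and HBEGF, were higher by a log2 ratio of at least 1, where 4.21% of 15115 genes were, and 0 were lower, where 3.54% were. In Sp1-si cells with CoCl2, EGFR, TGFA and HBEGF were higher, against 3.72% of 14927 genes, and EREG and BTC were lower, against 3.97%. Without scaling of the arrays EGF was a further higher member, at 1.07, and 0 were lower, with EREG at -0.95 and BTC at -0.82. BTC was also short of 1 under quantile normalization, median scaling, normexp and probe averaging (-0.99 to -0.74), and EGFR was at 0.97 under normexp. By its other probe HBEGF was at 0.66 in Sp1-si cells. The members had medians of 0.27 and 0.16 in these comparisons, and all genes had 0.0044 and -0.0060. The 2 comparisons with CoCl2 use different arrays, but each shares its arrays with the Sp1-si comparisons.

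**Figure D2:**
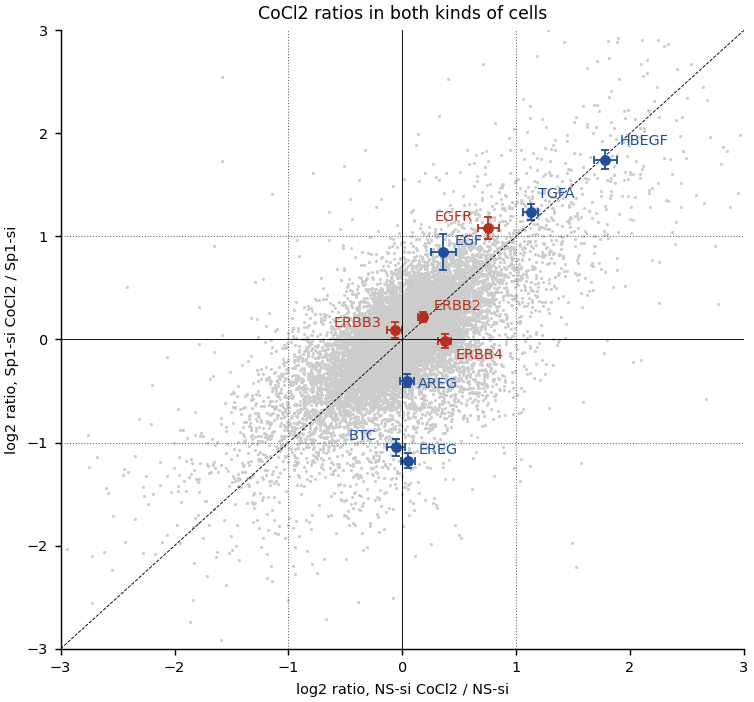
Log2 ratio with CoCl2 for NS-si (x axis) and Sp1-si (y axis) cells of the 10 members (red, receptors, and blue, ligands, with bars for the SD between spots) over the genes measured on both sides (grey). Dotted lines stand at 1 and -1 and the dashed line at equal ratios. HBEGF, TGFA and EGFR lie at the upper right near the dashed line, and EREG and BTC lie below it near -1.18 and -1.05.

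With Sp1 silenced, 4 of the 10 members, EGFR, EGF, TGFA and EREG, were lower by at least 1 without CoCl2, where 6.19% of 15186 genes were, and 0 were higher, where 6.2% were. With CoCl2 the same 4 genes were lower, where 8.04% of 15042 genes were, and 0 were higher, where 7.2% were. Without scaling of the arrays 2 of these 4, EGF and EREG, were still lower by 1 under CoCl2, EGFR and TGFA were at -0.99 and -0.92, and ERBB2 was higher, at 1.20. The median of the members was -0.65 without and -0.82 with CoCl2, against -0.01 and -0.03 for all genes. ERBB2 had a positive ratio in both comparisons under every setting tried (0.58 to 0.80 without and 0.55 to 1.20 with CoCl2), as AREG did when the arrays were not scaled. In the difference of the CoCl2 ratios EREG was the 1 member lower by at least 1, where 2.86% of 14283 genes were, and 0 members were higher, where 0.994% were. EGFR, EGF and TGFA had positive differences of 0.33, 0.49 and 0.11, of which that of EGF was -0.34 under normexp.

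The other genes of the pathway were taken as 5 lists of 62 genes, all present on the array. Of the other ErbB ligands, NRG1, a neuregulin for ERBB3 and ERBB4, read 1993 against 643 in untreated NS-si and Sp1-si cells, and 2139 against 832 under CoCl2, by its brightest probe. It was low on both Sp1-si arrays, with log2 ratios of -1.58 without and -1.76 with CoCl2. Of the other 3 probes, a pair had -1.80 and -1.75 without CoCl2, and a dim one -0.31. NRG3 and EPGN were above background on none of the arrays, and NRG2 on the Sp1-si array alone. NRG4 was dim, with ratios between -0.33 and 0.18.

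Of 6 genes for the release of ligands, ADAM17, the main sheddase of TGFA, AREG, EREG and HBEGF, read 11548 against 4282 without CoCl2, and 12419 against 4728 with it. Its log2 ratios of Sp1-si to NS-si were -1.38 without and -1.79 with CoCl2, and those of its other probe -1.46 and -1.83. ADAM10, the main sheddase of EGF and BTC, had -0.90 and -1.23. Thus 1 of the 6 was lower by at least 1 without CoCl2 and 2 with it, against 6.19% and 8.04% of all genes. RHBDF2, which carries ADAM17 to the cell surface, was higher, by 0.91 and 0.80. The median of the list was -0.50 without and -0.46 with CoCl2, and its CoCl2 medians were 0.31 and 0.11, with 0 of 6 genes past 1.

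Of 24 genes of signal relay from the receptors, MAPK3 and PLCG1 were higher by at least 1 with Sp1-si both without and with CoCl2, where 6.2% and 7.2% of all genes were, and 0 were lower, with list medians of 0.08 and 0.28. MAPK3, which encodes the kinase ERK1, read 119 against 392 without CoCl2 and 100.2 against 672 with it, log2 ratios of 1.77 and 2.35. PLCG1, a phospholipase that binds the receptors, had 1.104 and 1.48. CoCl2 gave ratios past 1 for MAP2K1, the kinase MEK1 that activates ERK, in both kinds of cells (1.18 and 1.25), and for SOS1, an activator of RAS, in Sp1-si cells (1.30).

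Of 15 genes that restrain the receptors or act in feedback, ERRFI1, an inhibitor of EGFR and ERBB2 kinase, read 24501 against 19859 without CoCl2 and 39961 against 25437 with it. Its CoCl2 ratio was 0.93 for NS-si cells and 0.13 for Sp1-si cells, and its Sp1-si ratio -1.05 under CoCl2. The other ERRFI1 probe had 0.80, 0.04 and -1.17 in the same order. SOCS5, which promotes EGFR degradation, was higher with Sp1-si by 0.94 without and 1.22 with CoCl2, and by 1.14 and 0.97 by its other probe. SPRED2, a restraint of RAS signalling, had 1.16 with CoCl2 in Sp1-si cells. By the brighter probes, 0 of the 15 were past 1 with Sp1-si without CoCl2 (6.2% of all genes were higher and 6.19% lower), and with CoCl2 1 was higher and 1 lower, against 7.2% and 8.04%. The list medians lay between -0.03 and 0.07 in the 4 comparisons.

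The 12 genes that respond to ERK were counted by their brightest probes. With CoCl2, DUSP5, FOS and FOSL1 were higher by at least 1 in both kinds of cells. Of all genes, 4.21% were for NS-si and 3.72% for Sp1-si cells. FOS, a subunit of AP-1, read 296 against 299 without CoCl2 and 777 against 2163 with it, with CoCl2 ratios of 1.62 and 2.63. DUSP5, a phosphatase for ERK, had 2.09 and 2.67, and FOSL1, another AP-1 subunit, 1.35 and 1.58. EGR1, an immediate early transcription factor, was lower, at -0.85 and -1.28, where 3.54% and 3.97% of all genes were lower by at least 1. With CoCl2 in NS-si cells PHLDA1 had 0.97 by its brightest probe and 2.11, 1.59 and 1.28 by dimmer ones. With CoCl2 in Sp1-si cells a dimmer probe each of ETV5 and CCND1 had -1.63 and -1.43, against 0.08 and 0.33 by the brightest. With Sp1-si and no CoCl2, 0 of the 12 were past 1 by their brightest probes, with a median of 0.02, against 6.2% of all genes higher and 6.19% lower. Dimmer probes of PHLDA1, at 0.86 by its brightest, had 1.30 and 1.48. Under CoCl2, FOS was the 1 gene of the 12 higher by at least 1 with Sp1-si, at 1.08, against 7.2% of all genes. By the brightest probes 0 were lower, against 8.04%, and the dimmer ETV5 probe had -1.39.

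**Figure D3:**
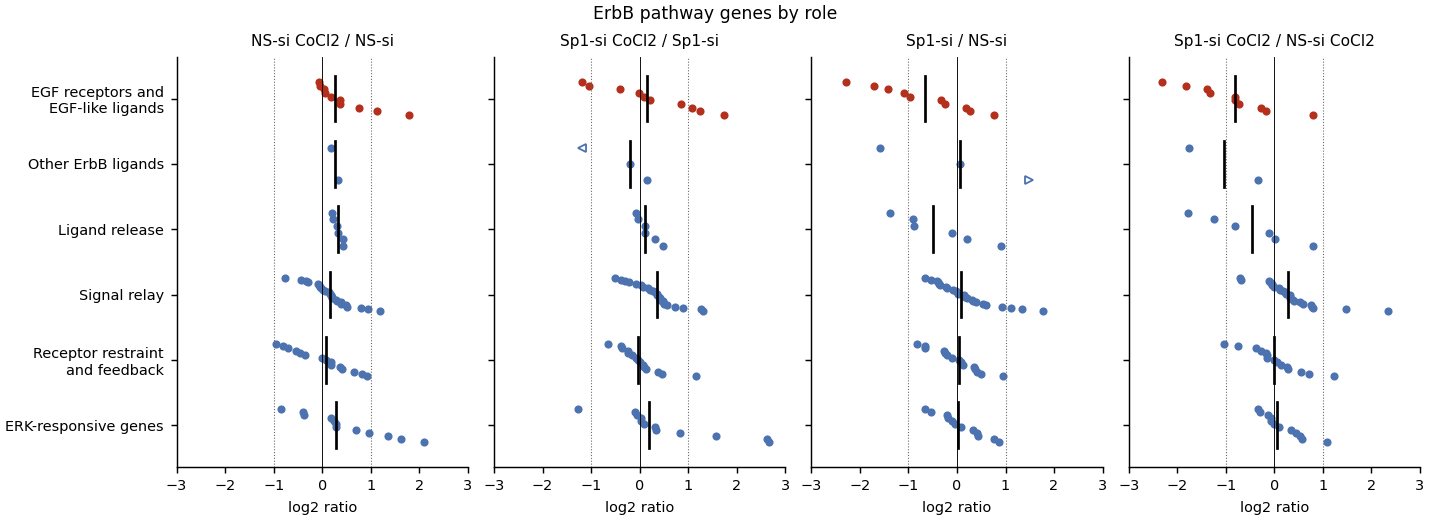
Log2 ratio (x axis) of each gene in the family and in the 5 pathway lists (y axis), by its brightest probe, in the 4 comparisons named above the panels. Points are genes, open triangles are bounds for a gene above background on 1 array of the pair, and black bars are medians. The family and the ligand release list have medians below 0 in both comparisons of Sp1-si with NS-si, at -0.65 and -0.50 without CoCl2, and the points farthest right in that panel are MAPK3 and the NRG2 bound.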

How the data were processed

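RNA of 4 conditions was measured on 4 single-colour arrays, 1 per condition. The authors deposited the intensities as the scanner software (Agilent Feature Extraction 10.5.1.1) wrote them, background-subtracted and detrended, with outlier and background calls, and not normalized between arrays. The deposited value table equals this signal times 1 constant per array (1.25 to 1.58), so that table, unlike the intensities, is scaled between arrays. Each array had 43376 spots for 41000 probes, none saturated. Here, log2 intensities of non-control spots were averaged per probe after outlier spots (66 to 73 per array) were dropped, and the 75th percentile of each array was set to 0. At least 50% of the spots had to be called well above background for a probe to be. The probe of highest mean signal stood for a gene. Symbols came from the RefSeq accession of the probe. A ratio with 1 side below background is a bound.

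No test across arrays exists, and a log2 ratio of at least 1 was counted as past the fold. A probe with 1 spot was given the median SD of the 53 probes nearest to it in signal that have 10 spots. The members and lists were chosen with earlier results of these data known. Named genes are all members with every probe, SP1, ADM, CA9 and NDRG1, up to 4 genes per pathway list past a log2 ratio of 1 and any gene that a small count refers to, the 5 nearest patterns of the 2 members of largest range, and the neighbours of AREG, EREG and BTC. RHBDF2, ADAM9, CBL, PHLDA1, ETV5, CCND1, NRG2, NRG3 and NRG4 were named after their values were seen. The array annotation is on an older build than RefSeq, so only names, gene order and promoter windows were taken from the latter.

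The processing was repeated with the authors' value table, with unscaled arrays, with scaling to the median or quantiles or to the percentile of bright probes, with outlier spots, with the average of a gene's probes, with only the probes above background on every array, and at a threshold of 0.5. A normexp correction (offset 50) used the median signals, a choice made after seeing the data, since the files used here hold no mean signals. A few genes are not reported here. A planned comparison of protein sequences was not run here. Counting was tested on simulated arrays made from the signals of the NS-si array with small added noise. There, 100 of 100 raised and 100 of 100 lowered probes among 41000 were recovered. The planted changes were far past the threshold and on bright probes, so this checks the counting alone and not its error on the real arrays. Python 3.11.15, numpy 2.4.6, pandas 2.3.3, matplotlib 3.10.9, R 4.3.3 and limma 3.58.1 were used.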

Additional observations from a re-analysis of the deposited data

Results flagged for a closer look

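By the probe that stood for the gene, the log2 ratio of Sp1-si to NS-si had opposite signs without and with CoCl2 for 2 members. Each ratio was beyond the SD between spots. For AREG it was 0.26 without and -0.18 with CoCl2, a difference of -0.44, which was 0.01 when the arrays were not scaled. For BTC it was 0.18 without and -0.81 with CoCl2, a difference of -0.99. The other BTC probe had 0.06 ± 0.080 without CoCl2, within the SD between spots, and -0.36 with CoCl2, a difference of -0.42. With 1 array per condition, neither difference was tested.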

How the results depend on the processing

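All 16 of the 50 member ratios and differences that were past 1 kept their sign under 8 other ways of processing, and 8 of the 16 stayed past 1 under all of them. Without scaling of the arrays, which put the median of all genes at -0.22 with CoCl2 in NS-si cells, 0.22 in Sp1-si cells, 0.37 for Sp1-si under CoCl2 and 0.47 in the difference, 1 member (HBEGF) was past 1 with CoCl2 in NS-si cells, and 0 were past 1 in the difference. With normexp, 3 members (TGFA, EREG and HBEGF) were past 1 with CoCl2 in Sp1-si cells. At a threshold of 0.5, 8 members were past it with Sp1-si under CoCl2 (7 lower, 1 higher) and 2 (EREG and BTC) in the difference. The other totals stayed within 1.5 times those given, but counts by direction moved more. Without scaling, 4 members were higher and 0 lower with CoCl2 in Sp1-si cells, and 1 was higher and 2 lower with Sp1-si under CoCl2. With quantile normalization, median scaling, normexp and probe averaging, 1 was lower (EREG) with CoCl2 in Sp1-si cells. The cause of these moves was not tested beyond the settings themselves. The planned normexp correction of mean signals was not run. No paired analysis was possible because each condition has 1 array and the labels carry no replicate numbers. Low signal over background limits EGF most among the members, and every value rests on few arrays.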

Other observations

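The patterns over the 4 arrays that lay nearest to those of EGF and TGFA, the 2 members of largest range, were sought among 20925 probes of other genes above background on every array, by the Euclidean distance of log2 levels centred on their mean over the arrays. Nearest to EGF were CAV1 (0.10), which encodes the caveolar coat protein caveolin 1, CYP4F11 (0.13), NT5E (0.13), which encodes the ecto-nucleotidase CD73, WSB2 (0.14) and AKR1C1 (0.14), against a median distance of 2.18 over all probes compared. CAV1 stood at 0.79 and -1.49 on the untreated NS-si and Sp1-si arrays and at 1.28 and -0.58 on those with CoCl2, where EGF stood at 0.85, -1.45, 1.21 and -0.60. Nearest to TGFA were SLCO4A1 (0.11), IL1RAP (0.12), which encodes an accessory subunit of the interleukin 1 receptor, SEMA4B (0.22), ANO6 (0.26) and MFNG (0.28), against a median of 1.85. With 4 points per probe, such likeness is a description of these arrays. The EGF shape also rests on a dim probe. Under normexp the EGF ratio of Sp1-si to NS-si without CoCl2 was -0.92 instead of -2.30. The EGF ratio with CoCl2 in Sp1-si cells was 0.04 instead of 0.85.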
